A study of Mus musculus with 4 samples.

Results

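Alas2, Hba-a1 and Hbb-b2 are genes of the red cell programme that were read in RNA of naive and memory CD8 T cell preparations. They were chosen by gene symbol, with their values in these data already known, because the haem synthesis gene and the globin genes pointed in opposite directions. They are 3 of 6137 genes that had a probe set with 1 symbol on either chip, and 4 probe sets carried their symbols, all on the B chip. The B chip held 1760 such genes, of which 462 were measured above noise. On the A chip 2 further probe sets were annotated with both adult alpha-globin symbols, Hba-a2 and Hba-a1, and are given separately because the annotation does not assign them to 1 gene.

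All T cells carried the B6.2.16 receptor, a transgenic T cell receptor for the male HY antigen, and all animals were female and RAG1-deficient, so that the recombinase needed to form other T and B cells was missing from donors and hosts alike. The naive group was lymph node CD8 T cells, with a stated purity above 85%. The memory group began as splenocytes cultured for 4 days with HY peptide. It was recovered by magnetic beads from spleen and lymph nodes of the hosts 200 days after transfer, with a stated purity above 80%. The sources used here do not give ages, the number of animals pooled or the identity of the remaining cells. Each group was read once on the A chip and once on the B chip, so 4 arrays were used, with 1 per group and chip. No spread between samples could be measured, and no difference below has a test, a standard error or a p-value. Tissue of origin, culture, transfer and sorting differed together with the group.

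Haemoglobin is made in red cell precursors, which join alpha and beta globin chains to haem. Alas2 is the erythroid form of the enzyme that begins haem synthesis, and its relative Alas1 does the same in other tissues. Hba-a1 encodes an adult alpha chain, in a cluster with the near-identical Hba-a2, and Hbb-b2 an adult beta chain. Mice of the C57BL/6 strain carry adult beta genes named Hbb-bs and Hbb-bt in the place of Hbb-b1 and Hbb-b2, and neither of those symbols had a probe set of its own here. GATA1 and KLF1 are the transcription factors best known for driving these genes. Reticulocytes, the youngest circulating red cells, keep globin mRNA after losing the nucleus.

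RefSeq promoter sequences were found for Alas2 and Hba-a1, which is 2 of the 3 genes, and not for Hbb-b2. The 250 bases before each start are shown, because both genes are known targets of GATA1 although the arrays read them in opposite directions. Both windows lie on the forward strand of GRCm38.p6, at chrX:150547167-150547416 for Alas2 and chr11:32283422-32283671 for Hba-a1, and capitals mark GATAA or its reverse complement TTATC, the core letters that GATA factors recognise.
Alas2: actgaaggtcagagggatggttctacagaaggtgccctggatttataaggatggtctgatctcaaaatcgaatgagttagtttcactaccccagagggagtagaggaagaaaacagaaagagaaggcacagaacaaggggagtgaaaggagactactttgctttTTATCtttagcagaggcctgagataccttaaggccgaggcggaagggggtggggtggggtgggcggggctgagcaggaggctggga
Hba-a1: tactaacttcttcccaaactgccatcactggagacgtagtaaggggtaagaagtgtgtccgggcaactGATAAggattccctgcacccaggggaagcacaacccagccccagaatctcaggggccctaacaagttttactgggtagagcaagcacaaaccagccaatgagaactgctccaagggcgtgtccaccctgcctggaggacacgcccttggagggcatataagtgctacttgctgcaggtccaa
Each window held GATAA 1 time. The match began 86 bases before the start in Alas2, on the reverse strand, and 182 bases before it in Hba-a1, on the forward strand. CACCC, the letters of the KLF1 motif, occurred 3 times in the Alas2 window and 2 times in that of Hba-a1, counting both strands. Of 32851 RefSeq promoter windows of this length, 22.6% held GATAA and 52.0% held CACCC on either strand. These matches describe the letters and are not shown to be binding sites.

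Memory and naive values of the B chip had a Spearman correlation of 0.85 (6540 gene probe sets, which are not independent replicates). Values under 423, the B-chip floor derived from the negative intensities, were treated as noise and set to that value before a ratio was taken. Naive A values did not follow gene names (correlation with the memory A values 0.10 across 6529 probe sets), so on the A chip only the memory array is described, against its noise limit of 184. Of 7 T cell markers on the B chip 5 were measured. None was called higher in memory, 1 lower and 4 neither, with a median log2 ratio of -0.22. Over all 462 measured genes 8.87% were higher and 8.66% lower. Cd3g, Cd8a and Zap70 never reached 2 times the floor, which a call needed, and their ratios are bounds. The count and the median therefore cannot be read as equal T cell content. The summed intensity of all 7 markers was 5186 in memory and 8953 in naive, and Thy1 made up most of that gap. The lower marker was Thy1, a surface protein of mouse T cells, at 2848 in memory and 6184 in naive (log2 ratio -1.12, or -0.34 with quantile and -0.14 with lowess scaling, an intensity-dependent correction). Cd3d, a chain of the receptor complex, gave 959 in memory and 1115 in naive. Cd8a, the coreceptor, gave 498 and 352, with the naive value under the floor. All 4 B lineage markers on the B chip were under the floor on both arrays. Of 4 others on the memory A array, 1 was above the limit. That was Ms4a1, at 301 with 1 probe set and -19.0 with the other. These are bulk preparations, in which a different number of cells of a type and a different amount of RNA per cell cannot be told apart.

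Alas2 was higher in the memory preparation. Its only probe set gave a scaled intensity of 1944 on the memory array and 183 on the naive array. The memory value was 4.60 times the floor, and the naive value lay under it, so the ratio is a bound of at least 4.60-fold, or a log2 ratio of at least 2.20. Of 1056 probe sets above the floor on 1 array or both, 67 (6.34%) were at least 2-fold higher in memory, and 6, Alas2 included, had a log2 ratio of 2.20 or more. Alas2 was chosen for this difference, so its place in that order describes it and supports nothing. No other Alas2 probe set was found on either chip, so the difference rests on 1 probe set.

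The globin probe sets with a clear signal were lower in the memory preparation. The Hba-a1 probe set v00714_f_at gave 2007 in memory and 11296 in naive, which is 5.63-fold lower in memory (log2 ratio -2.49). The Hbb-b2 probe set v00722_f_at gave 2290 in memory and 6105 in naive, which is 2.67-fold lower (log2 ratio -1.41). All 4 of these values were above the floor, the smallest by 4.75 times, so neither ratio is a bound. Lower calls made up 10.7% of the probe sets tested (113 of 1056). The ratio of Hba-a1 was lower than those of all but 1 of the 1056, whereas 60 probe sets, Hbb-b2 included, had a ratio at or below that of Hbb-b2.

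**Figure D1:**
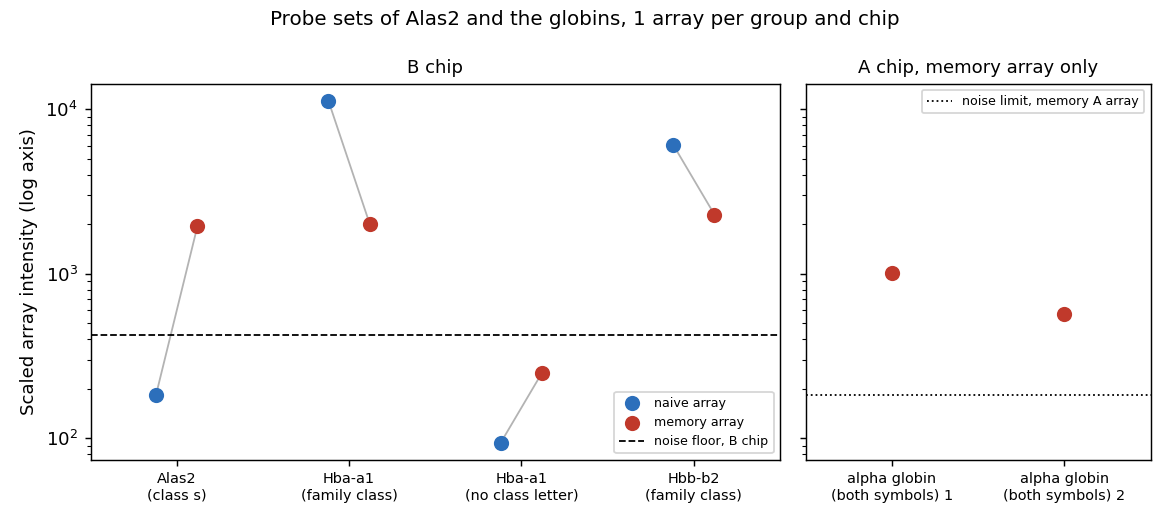
Scaled array intensity (log axis) of each probe set, with 1 point per array; the left panel shows memory and naive on the B chip with the noise floor of 423, the right panel the memory array of the A chip with its limit of 184. Alas2 reads 183 in naive and 1944 in memory, the family-class globin probe sets read 11296 and 6105 in naive and 2007 and 2290 in memory, and the other Hba-a1 probe set is under the floor on both arrays.

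Hba-a1 had another probe set on the B chip, and it did not show the signal of the first. The other probe set gave 250 in memory and 93.7 in naive, both under the floor, so it has no ratio. Both probe sets are annotated to the same GenBank record of the alpha-globin gene. They differ in class: the bright one carries the letter f in its name, which marks probes shared by a family of related sequences, and the dim one carries no class letter. The probe set of Hbb-b2 is of the family class too. That of Alas2 carries the letter s, and whether its probes match only Alas2 was not examined. The bright alpha and beta signals therefore belong to probe sets that may read several globin genes, and they cannot be assigned to Hba-a1 or Hbb-b2 alone. On the B chip 13 sequence records were read by 1 family-class and 1 other probe set. In 3 of these the family-class probe set was above the floor on 1 array or both. The other probe set was above the floor for Cycs, the respiratory chain protein cytochrome c, and under it for Hba-a1 and for the basement membrane gene Hspg2. Family-class probe sets made up 370 of the 1056 tested, and gave 68 of the 113 lower calls and 19 of the 67 higher ones.

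On the memory array of the A chip, both probe sets annotated with the adult alpha-globin symbols were above that array's noise limit. They gave 1005 and 566, which is 5.47 and 3.08 times the limit of 184. Both are of the family class as well. Alpha-globin signal in the memory preparation was thus read on both chips, each time by family-class probes. The embryonic globin genes on that array were under the limit, with 78.9 for Hba-x, 15.0 for Hbb-bh1 and -55.9 for Hbb-y.

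The ratio of Alas2 and the ratios of the globins differed by at least 4.69 log2 units for Hba-a1 and at least 3.62 for Hbb-b2. A factor shared by a whole array cancels in such a difference, but one that depends on brightness does not. On the naive array v00714_f_at was the 13th brightest of 6540 gene probe sets and v00722_f_at ranked 57, and on the memory array they ranked 178 and 141. Alas2 ranked 180 on the memory array. These ranks say where on the intensity range a probe set was read, not how much of a transcript was present. At that range the arrays parted. Among 696 probe sets above the floor on both arrays, 51 of the brightest 87 were called lower and their median log2 ratio was -1.13, whereas 13 of the next 87 were called lower and the median was -0.22. The brightest value of a gene probe set was 5125 on the memory array and 15786 on the naive array.

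**Figure D2:**
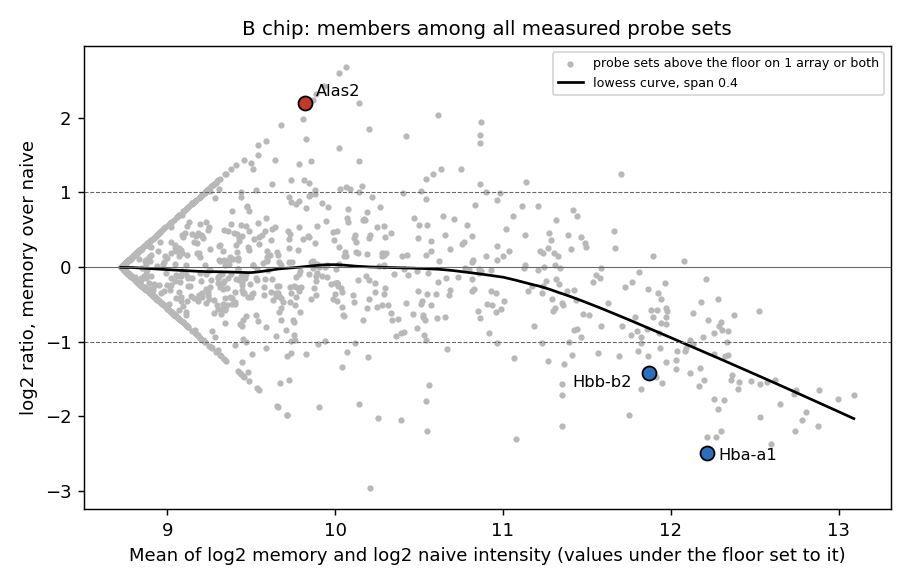
The log2 ratio of memory over naive (vertical axis) against the mean log2 intensity (horizontal axis) for 1056 B-chip probe sets, with the lowess curve of span 0.4 and dashed lines at 2-fold. Alas2 sits where the curve is near 0, while Hbb-b2 and Hba-a1 sit where it has fallen to -0.82 and -1.16.

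Intensity-dependent scaling therefore moved the globins and hardly moved Alas2. The lowess curve, fitted with a span of 0.4, stood at 0.0074 at the mean intensity of Alas2, at -0.82 at that of Hbb-b2 and at -1.16 at that of Hba-a1. After its removal the log2 ratio of Alas2 was at least 2.19, that of Hba-a1 was -1.34 and that of Hbb-b2 was -0.60, the last within 2-fold. Under this scaling 7.2% of probe sets were called higher and 5.11% lower, and 27 of the 1056 had a ratio at or below that of Hba-a1. Quantile normalization gave -1.92 for Hba-a1, -0.95 for Hbb-b2 and 2.20 for Alas2, with 7.48% of probe sets called higher and 6.16% lower. The difference between Alas2 and the globins was at least 3.53 for Hba-a1 and 2.79 for Hbb-b2 with lowess scaling. With the floor doubled the bound on Alas2 became 1.20, and with the floor halved it became 3.20.

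**Figure D3:**
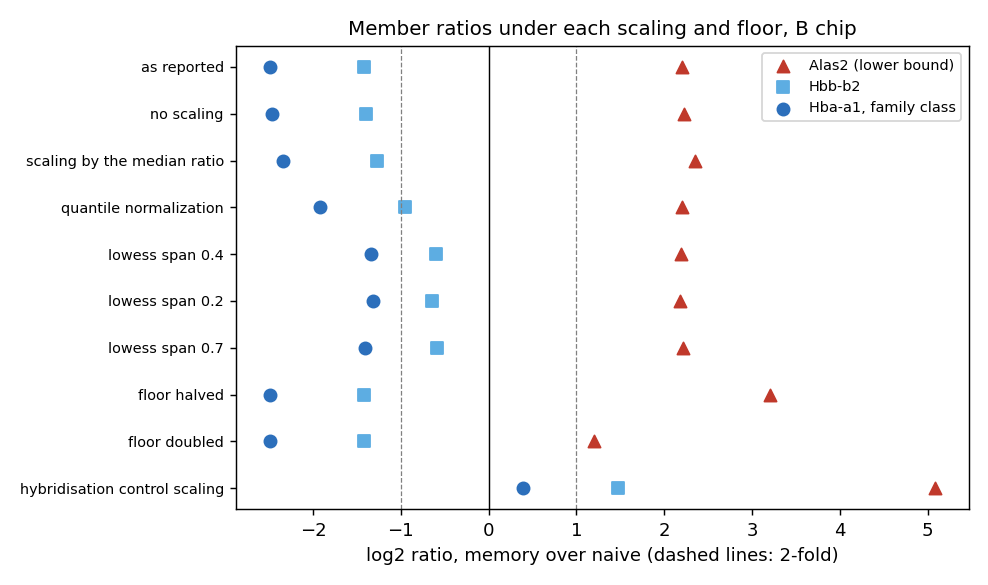
The log2 ratio of memory over naive (horizontal axis, dashed lines at 2-fold) of the 3 measured probe sets under each scaling and floor. Alas2, a lower bound throughout, stays at 1.20 or above. Both globins turn positive when the arrays are scaled to the hybridisation controls, whose ratios were taken without the floor, which enlarges that shift. In the other settings Hba-a1 is past 2-fold lower, and Hbb-b2 comes inside 2-fold with quantile and lowess scaling.

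The hybridisation and beta-actin control probe sets of the B chip were lower in memory, as the globins were, while those of Gapdh lay within 2-fold. BioB, BioC, BioDn and CreX are bacterial and phage transcripts that the manufacturer supplies for addition to the hybridisation mix. The sources used here do not say whether the same amount was added to both arrays. All 9 of their probe sets were lower on the memory array, by 2.92-fold to 15.5-fold, with a median log2 ratio of -2.88. These control ratios were taken without applying the floor. The BioB memory values, 180, 222 and 186, lay under the floor, so the largest fold, that of a BioB probe set, divides by noise. The log2 ratios of Hba-a1 and Hbb-b2 were -2.49 and -1.41. Of the transcripts printed as controls for RNA quality, the 3 beta-actin probe sets (Actb) had log2 ratios of -2.55, -1.70 and -1.90 from the 3′ end to the 5′ end, and those of Gapdh, a glycolytic enzyme, 0.14, -0.50 and -0.36. The ratio of 3′ to 5′ signal was 0.747 in memory and 1.17 in naive for Actb, and 1.76 and 1.25 for Gapdh. Scaled to the median of the 9 hybridisation controls, the median log2 ratio of measured probe sets was 2.76 in place of -0.12, and 47.5% of these probe sets counted as higher in memory and 0 as lower. On that scale Hba-a1 turned to 0.39 and Hbb-b2 to 1.47, and the bound on Alas2 rose to 5.08, while both differences between Alas2 and the globins were unchanged. The median used there includes the BioB ratios taken without the floor. Applying the floor to them would make the shift smaller, and with it the 0.39 of Hba-a1 and the 1.47 of Hbb-b2. That scaling shifts every log2 ratio by the same amount. The places of Hba-a1 and Hbb-b2 relative to the median of all measured probe sets could therefore not change. What part these differences between the arrays had in the globin ratios was not tested.

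**Figure D4:**
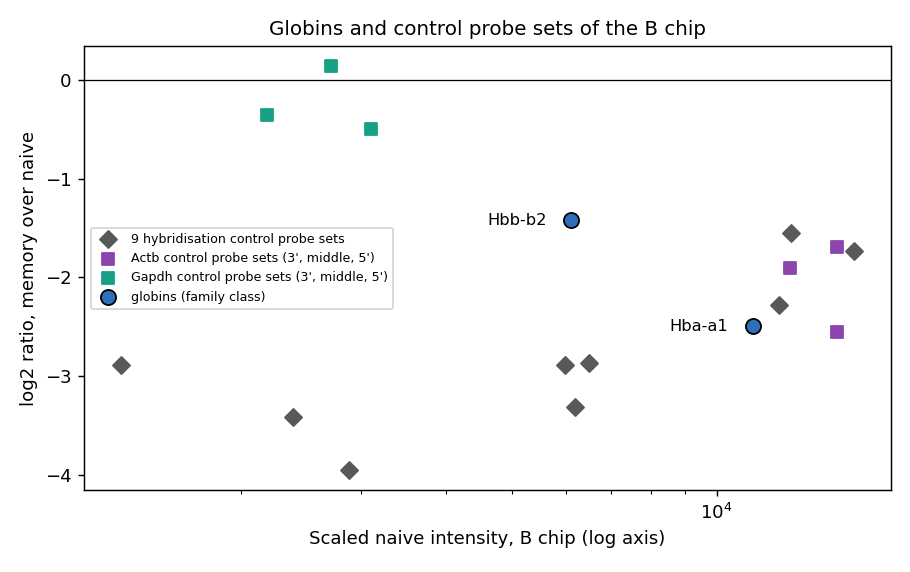
The log2 ratio of memory over naive (vertical axis) against the scaled naive intensity (log axis) for the 9 hybridisation control probe sets, the Actb and Gapdh control probe sets and the family-class globin probe sets, 1 pair of B-chip arrays. The hybridisation controls, whose ratios were taken without the floor, lie between -3.95 and -1.55, and Hba-a1 at -2.49 lies inside that range. The lowest is a BioB probe set with a memory value under the floor.

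Other enzymes of haem synthesis gave little signal. Of 9 listed enzymes, 4 were on the B chip and 2 were measured, of which Alas2 was higher and Alas1 had no call. Alas1, the form found in most tissues, gave 584 in memory and 380 in naive. The naive value was under the floor, so the log2 ratio of 0.47 is a lower bound. Its memory value was under 2 times the floor, so Alas1 could not be called higher. Alad and Cpox, which act after the first step, were under the floor on both arrays, with 91.3 and 63.5 in memory and 171 and 113 in naive. On the memory A array 4 of the 5 enzymes present on that chip were under the limit. Fech, which inserts iron into the ring to complete haem, gave 122, Cpox gave 146, Urod 80.9 and Uros -27.0. Ppox passed the limit with 1 of its 3 probe sets, at 228, and the others gave 57.9 and 78.9. Hmox1, the inducible enzyme that breaks haem down and is abundant in macrophages that clear red cells, gave 2224 and 485 on that array, both above the limit.

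No red cell gene of the membrane, enzyme and transcription factor lists was called on the B chip, but few could be. Only 2 membrane genes and 2 enzyme genes were measured. Of these only Prdx2, at 858 in memory, reached the 2 times the floor that a call needs, so the absence of calls says little. Slc4a1, the anion exchanger band 3 of the red cell membrane, gave 754 in memory and 614 in naive (log2 ratio 0.30), and another probe set gave 305 on the memory A array, above its limit. Ank1, the ankyrin that anchors band 3, gave 402 in memory, under the floor, and 508 in naive, a bound of -0.26. Prdx2, an antioxidant enzyme abundant in red cells, was read by 2 probe sets with log2 ratios of 0.55 and 0.56. Gpx1, a peroxide-reducing enzyme, gave 278 in memory, under the floor, and 515 in naive. The embryonic beta-like gene Hbb-bh1 lay just under the floor in memory at 422 and at 356 in naive. Of the listed erythroid transcription factors and receptors, all 6 on the B chip were under the floor on both arrays, among them Gata1 at -90.3 and -215. On the memory A array 11 of 13 were under the limit, including Klf1 at 177, Epor, the erythropoietin receptor, at 15.0 and Tal1 at 39.9. The others, Ldb1 at 437 and Stat5a at 358, are widely expressed in blood cells. Epb42 and Car1, further red cell genes, gave 5.99 and 62.9 there, and the carbonic anhydrase Car2 gave 301. Of 6 erythroid markers on the B chip 5 were measured. The 1 that was higher and the 2 that were lower are Alas2, Hba-a1 and Hbb-b2 themselves, which were chosen for these values, so the count and the list's median log2 ratio of -0.26 restate that choice and nothing is read from them. The remaining measured markers, Slc4a1 and Ank1, were under 2 times the floor and could not be called. Over all 462 measured genes 8.87% were higher and 8.66% lower, with a median of -0.12.

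**Figure D5:**
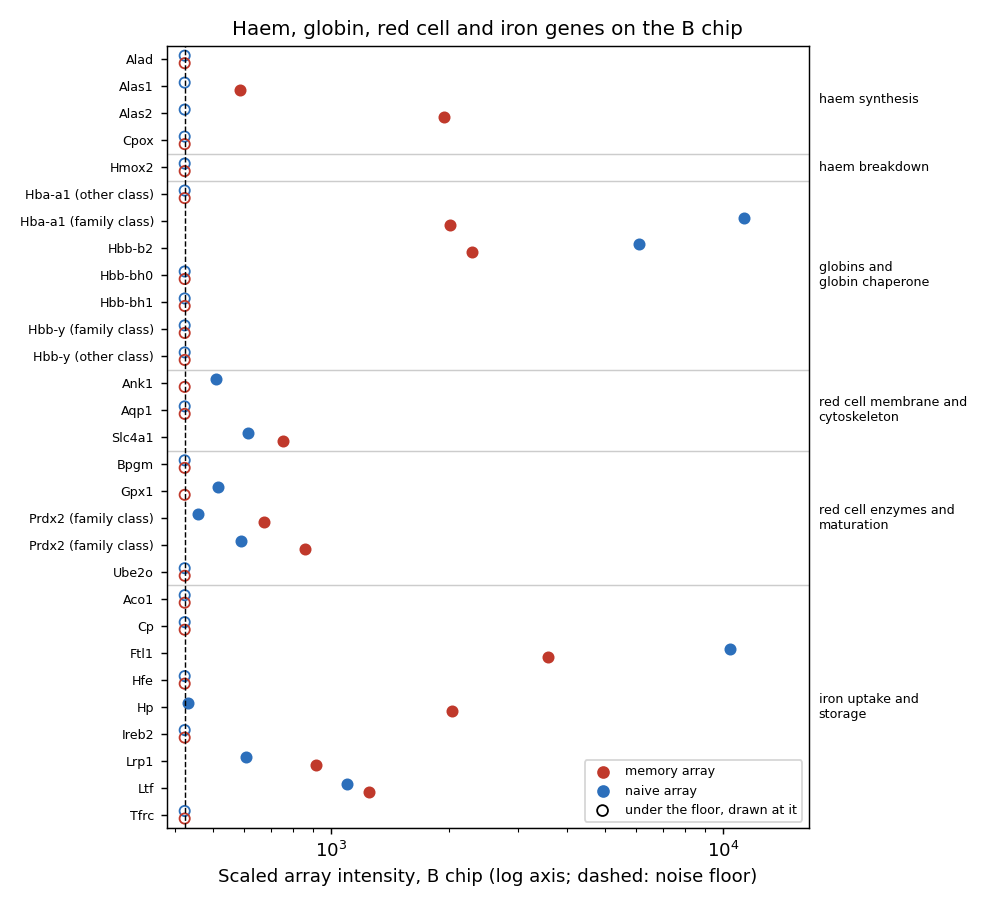
Scaled intensity (log axis) of every probe set with 1 symbol from the haem, globin, red cell and iron lists on the B chip, memory and naive array, with open points for values under the floor of 423 drawn at it. Alas2 and Hp are far higher in memory, the family-class globin probe sets and Ftl1 far lower, and most other genes lie near the floor or within 2-fold.

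Iron genes held members in both directions. Of 9 on the B chip 4 were measured, with 1 higher, 1 lower and the other two inside 2-fold; their median log2 ratio was 0.39. Hp, haptoglobin, the plasma protein that binds free haemoglobin, was 4.71-fold higher in memory (2032 against 431). Ftl1, the ferritin light chain that stores iron, was 2.90-fold lower (3573 against 10380), and its ratio became -0.032 with lowess scaling. Lrp1, a receptor that takes up haem bound to haemopexin, and Ltf, the iron-binding lactoferrin of granulocytes, had log2 ratios of 0.60 and 0.18. Tfrc, the transferrin receptor by which red cell precursors take up iron, was under the floor on both arrays, at 68.5 and -12.1. On the memory A array the ferritin heavy chain Fth1 gave 2487 and 1594, and Slc11a1, the iron transporter of macrophage phagosomes, gave 516.

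Markers of macrophages, which engulf red cells in the spleen, read higher in memory, as Alas2 did. All 11 macrophage genes on the B chip were measured and had log2 ratios above 0, from 0.075 to 1.94. Of these 6 were higher and none lower, with a median of 1.14, and 4 were higher with the floor doubled. Over all 462 measured genes 8.87% were higher and 8.66% lower, with a median of -0.12. Inside 2-fold were Vcam1 (0.075), C1qc (0.25), Cd14 (0.42), Adgre1 (0.66) and C1qa (0.82). With lowess scaling Vcam1 became 1.10 and C1qa 1.07, while C1qc (0.88), Cd14 (0.63) and Adgre1 (0.71) stayed inside 2-fold. The macrophage genes called higher were then 8 of 11, where 7.2% of all measured probe sets were. With quantile normalization they were 9 of 11, where 7.48% of probe sets were. The summed intensity of the 11 genes was 28398 in memory and 16409 in naive. The higher ones were Mpeg1, a pore-forming protein, at 3665 against 954, Mrc1, the mannose receptor, at 1810 against 596, and Csf1r, the receptor for macrophage colony-stimulating factor, at 2723 against 1090. With them were the lysosomal protease Lgmn at 1148 against 463 and the complement subunit C1qb, whose probe sets gave 3347 against 1520 and 2525 against 747. The lipid carrier Apoe gave 1002 against 260, the latter under the floor. Granulocyte markers had 4 measured of 5 on the chip, none past 2-fold, with a median of 0.17 and sums of 9929 and 10713. The erythroid markers summed to 7306 in memory and 18491 in naive, a sum set mainly by the globins. Gp5, the only platelet marker on the chip, was under the floor on both arrays. Whether other cells in the preparations had a part in the ratios of Alas2 and the globins was not tested.

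The genes most like each member were found by distance in the plane of log2 memory and log2 naive intensity on the B chip, which holds 2 arrays and thus only 2 coordinates. Raising low values to the floor moved the naive value of Alas2 from 183 to 423 and that of Pla2g7 from 340 to 423. The distances from Alas2 are therefore not distances between measured naive values, and say only that these genes were high in memory with a naive value near or under the floor. Nearest to Alas2 were Hp at 0.070 log2 units, the lipoprotein-associated phospholipase Pla2g7 at 0.12 and Marcks, an actin-binding kinase substrate, at 0.15. Nearest to Hba-a1 were H2-D1, a class I heavy chain, at 0.42, the class II invariant chain Cd74 at 0.66 and the ribosomal protein Rplp0 at 0.73. Nearest to Hbb-b2 were the ribosomal protein Rpl6 at 0.16, the prolyl isomerase Ppia at 0.17 and the kinase Pim1 at 0.26. Hba-a1 had the most distant neighbours of the 3, and its ratio of -2.49 was lower than the -1.91 of H2-D1, -1.63 of Cd74 and -1.54 of Rplp0.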

How the data were processed

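Total RNA isolated with Trizol was made into cRNA and hybridised to a set of 2 Affymetrix mouse chips, per the labels' protocols. The deposited array intensity values are whole numbers per probe set, partly negative; the sources used here name neither the software nor a genome build. Their 2% trimmed means were near 150 on all 4 arrays (150.2 to 150.4). Symbols came from the platform annotation, and the Entrez numbers of all 3 genes matched the same symbols in RefSeq.

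The 55 control probe sets of each chip were dropped before both of its arrays were brought to 1 trimmed mean (2% off each end; B-chip factors 0.993 and 1.01). The floor was set at percentile 95 of the absolute negative values of the noisier array. A call needed a brighter array of at least 2 times the floor and a 2-fold ratio. A listed gene was read by its brightest probe set. Named genes were all members, measured list genes past 2-fold, up to 4 further measured genes a list and the 3 nearest genes of each member; other list genes, and those compared by sequence record, were named after their values were seen. The members, the 8 pathway lists and 6 marker lists were chosen with earlier results of these data known.

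Lowess used statsmodels 0.14.6 (span 0.4) on probe sets above the floor on both arrays. The trimmed-mean and lowess scalings were tested on simulated data in which only bright probe sets were changed. The other scalings were not tested there. The number of arrays limits the precision. Other scalings, floors, fold limits and ways to represent a gene were tried.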

Additional observations from a re-analysis of the deposited data

How the results depend on the processing

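Alas2 stayed past 2-fold under every scaling and floor tried, and its difference from each globin stayed positive and at least 2.62 log2 units. Hbb-b2 came inside 2-fold with quantile normalization (-0.95) and with lowess spans of 0.4, 0.2 and 0.7 (-0.60, -0.64 and -0.58). Scaling to the hybridisation controls, added after the data were seen, reversed Hba-a1 (0.39) and Hbb-b2 (1.47) and changed the counts of higher and lower probe sets from 67 and 113 to 502 and 0. The control ratios behind that scaling were taken without the floor, which made the shift larger. The counts were 112 and 207 with the floor halved, 25 and 74 with it doubled, 109 and 185 at 1.5-fold and 19 and 39 at 3-fold; lower ones fell to 65 with quantile normalization and 54, 54 and 55 with the 3 lowess spans. With a doubled floor the erythroid median became -1.41, the ratio of Hbb-b2 itself, and the macrophage median 0.44, and with genes required above the floor on each array they became -1.41 and 0.98, since fewer genes or smaller bounds then count. Averaging both Hba-a1 probe sets gave -1.25. The dim one, with both values set to the floor, entered that average as 0, so it is not a separate estimate. Without class letters only the dim Hba-a1 probe set was left, so no value could be given. No paired analysis was possible because each group had 1 array per chip and labels carry no numbers; leaving out an array would leave none to compare.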
